A study of Mus musculus with 73 samples.

Results

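The tumours described here are mammary tumours of the KP mouse model, classed by histology as carcinosarcoma or as adenocarcinoma. Members were taken by label from the deposited table of read counts. They are the 3 carcinosarcomas (26.02A, 130.10A and 5) and the 5 adenocarcinomas (89.01A, 90.01A, 131.03A, 39 and 40) of genotype KP, 8 of the 73 tumours in the series. KP is the established model in which Trp53 is deleted in K14-expressing epithelium by Cre. The labels give the genotype only as KP, with no age or strain, and no treatment that sets the groups apart. The labelled share of epithelial tissue was 80% in carcinosarcoma 26.02A, 90% in carcinosarcomas 130.10A and 5, and 100% in all 5 adenocarcinomas. RNA was sequenced from polyadenylated, strand-marked libraries. Those of the KP and L1363P (KB1(L1363P)P, Brca1 p.L1363P) tumours were 29 libraries of 1 sequencing run, and the KP libraries held 13103749 to 16104148 counts. In the established models of these names Trp53 is deleted in both genotypes. The 12 L1363P tumours used for comparison are 9 carcinosarcomas and 3 adenocarcinomas. The other 9 libraries of the run, from L1363P sarcomatoid tumours, were in the same fit. The spread behind the p-values of the KP contrast was therefore estimated over the 29 libraries, not over the KP tumours alone. No label states whether each tumour is from its own animal, so p-values here measure the spread between these samples only. L1363P carcinosarcomas 54.1 and 54.2 share a number and a code in their titles, and were fitted as separate tumours.

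Carcinosarcomas hold malignant cells of both epithelial and mesenchymal appearance. Mammary epithelium has luminal cells, which carry the milk protein genes and keratins such as Krt8, and basal cells, which carry Krt5, Krt14 and hemidesmosome genes. Epithelial identity is kept by adhesion genes such as Epcam and Cdh1 and by splicing factors such as Esrp1, while the transcription factors of the SNAI and ZEB families repress such genes in cells that turn mesenchymal. In bulk tumours, fewer cells of a type and less RNA per cell cannot be told apart.

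Epithelial genes were at high levels in all 3 carcinosarcomas, and none of the 24 genes of epithelial adhesion and splicing had an unadjusted p under 0.05 in either direction, beside 11.9% of all genes tested. Their median log2 fold change of carcinosarcomas over adenocarcinomas was 0.45, and 0.15 without 90.01A, where 1 of 24 had an unadjusted p under 0.05 in the lower direction, beside 8.6% of all genes. Epcam, an epithelial adhesion molecule, had 755, 570 and 642 CPM (read counts scaled to the library total times its TMM factor) in carcinosarcomas 26.02A, 130.10A and 5, against 648, 1.47, 836, 632 and 608 CPM in adenocarcinomas 89.01A, 90.01A, 131.03A, 39 and 40. Cdh1, which encodes E-cadherin, had 568, 576 and 593 CPM in the carcinosarcomas in the same order, against 236, 15.7, 371, 535 and 578 CPM in the adenocarcinomas in that order, which is kept below. Both groups overlapped for both genes, and the low tumour was an adenocarcinoma in each case. Elf3, an epithelial transcription factor gene, had 70.1, 71.8 and 97.3 CPM in carcinosarcomas against 20.5, 0.067, 54.6, 38.2 and 43.4 CPM in adenocarcinomas. With Esrp2 it was 1 of the 2 genes of this list that lay above in all 3 carcinosarcomas. In the list 0 genes lay below, and the shares of all genes were 3.16% above and 3.25% below. Krt8 had 478, 375 and 526 CPM in carcinosarcomas against 256, 92.1, 322, 267 and 699 CPM in adenocarcinomas. Krt14 had 59.3, 100 and 158 CPM in carcinosarcomas against 650, 2.81, 297, 212 and 157 CPM in adenocarcinomas. Vim, which encodes the mesenchymal filament vimentin, had 628, 447 and 738 CPM in carcinosarcomas against 511, 1970, 326, 989 and 549 CPM in adenocarcinomas. No carcinosarcoma stood above the highest adenocarcinoma for Vim, and the tumour with most Vim was 90.01A. Trp53 reads were present in all 8 tumours, at 17.6, 20.9 and 17.1 CPM in carcinosarcomas against 20.0, 24.8, 15.1, 25.7 and 20.2 CPM in adenocarcinomas. Gene totals do not show which exons the reads came from, so they do not check the deletion.

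**Figure D1:**
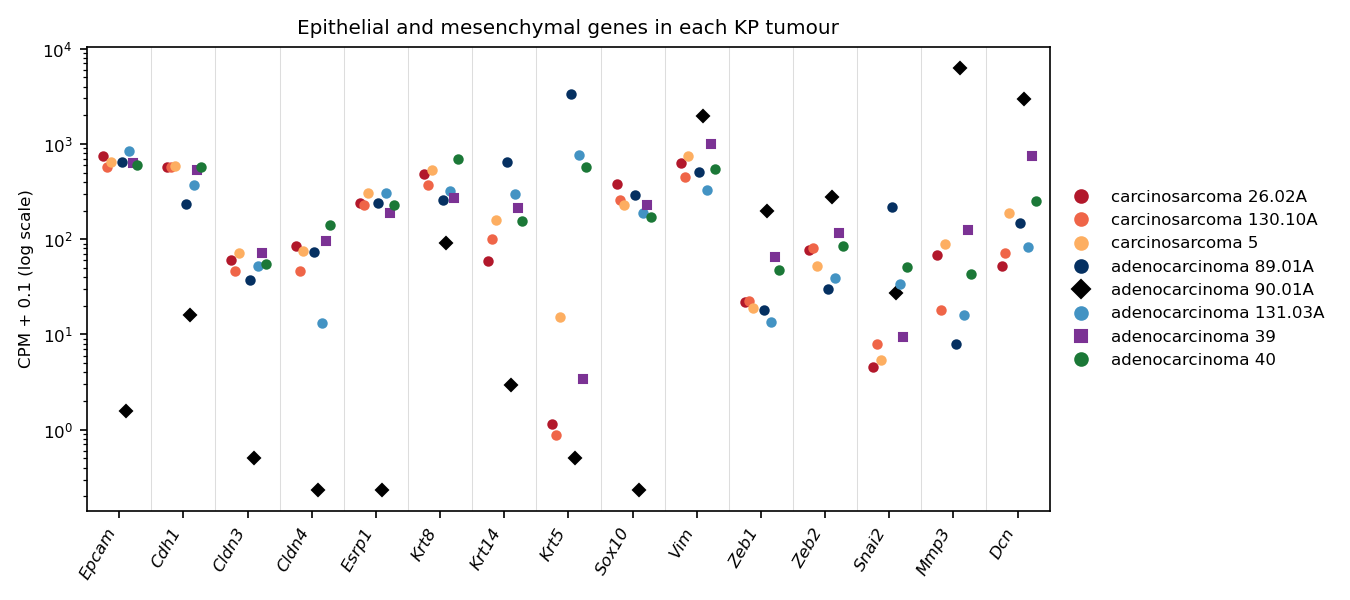
Levels of epithelial, basal and mesenchymal genes in each KP tumour, as CPM plus 0.1 on a log axis, with 1 point per tumour. Adenocarcinoma 90.01A (black diamond) is lowest for Epcam, at 1.47 CPM, and highest for Vim, at 1970 CPM, while the 3 carcinosarcomas have 570 to 755 CPM of Epcam.

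Adenocarcinoma 90.01A went against its label of 100% epithelium. Over the 24 genes of epithelial adhesion and splicing, the summed level was 3779 to 4433 CPM in carcinosarcomas and 3255 to 6298 CPM in the other 4 adenocarcinomas, but 646 CPM in 90.01A. Its lowest genes against the other 7 tumours included Esrp1, at 0.134 CPM where the next tumour had 189 CPM, and Sox10, a factor of mammary and neural crest cells, at 0.134 CPM where the next tumour had 172 CPM. Xist, the RNA that coats the inactive X chromosome in female cells, was at 1.41 CPM in 90.01A and at 1089 CPM or more in each of the other 7. Its summed levels of the macrophage, B and plasma cell, and fibrillar collagen lists were 9030, 743 and 36665 CPM, each above the other 7 tumours. Immunoglobulin genes stood among its highest relative to the rest, with Ighg1 at 742 CPM against 3.01 CPM in the next tumour. These values cannot tell apart the possible reasons, a library under the wrong label or a tumour piece with few epithelial cells among them, and none was tested. Each value that includes 90.01A therefore carries this doubt. The part of other cell types in its values was not tested. The tests across genes and the gene list counts were therefore computed with and without this tumour, while the counts in chromosome windows and the genes of single tumours given further on were computed with all 8. Since it was set aside for low Epcam, epithelial values without it are partly fixed by that choice.

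Promoters of the epithelial genes are shown because the list was low as a group in 90.01A and, by its summed level, within the range of the other adenocarcinomas in the carcinosarcomas. Epcam, for which 90.01A was singled out, is a member of the list, so its low level there is partly set by that choice. The cause of that level was not tested. Of the 24 epithelial genes, 13 had an entry in the RefSeq promoter table (build GRCm38.p6, 250 bases before to 50 after the start). CAGGTG, the E-box core bound by ZEB and SNAI proteins, was searched on both strands (as CAGGTG or CACCTG). It occurred in a promoter of 11 of the 13 genes and in 22.6% of 27025 genes overall. AACCGGTT, the grainyhead core, reads the same on both strands and was found for 0 of the 13 and for 0.174% of all genes. A match is a description of the letters and not evidence of binding. The 3 promoters below hold 2 matches each, printed in capitals, with Epcam at chr17:87635729-87636028 on the plus strand. Cldn4, a tight junction gene, lies at chr5:134946885-134947184 and Rab25, a GTPase gene of epithelial membrane recycling, at chr3:88548230-88548529, both on the minus strand.
Epcam: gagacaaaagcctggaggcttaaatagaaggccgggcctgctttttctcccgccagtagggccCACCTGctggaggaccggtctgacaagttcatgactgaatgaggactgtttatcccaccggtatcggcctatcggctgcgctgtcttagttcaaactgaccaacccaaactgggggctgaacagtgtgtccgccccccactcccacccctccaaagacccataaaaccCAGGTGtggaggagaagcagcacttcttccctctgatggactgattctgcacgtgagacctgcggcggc
Cldn4: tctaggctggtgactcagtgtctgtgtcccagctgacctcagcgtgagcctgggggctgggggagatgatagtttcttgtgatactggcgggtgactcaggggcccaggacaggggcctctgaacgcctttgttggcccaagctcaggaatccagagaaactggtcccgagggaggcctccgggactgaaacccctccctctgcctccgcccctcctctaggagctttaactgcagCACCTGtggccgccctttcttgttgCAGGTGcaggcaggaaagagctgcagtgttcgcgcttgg
Rab25: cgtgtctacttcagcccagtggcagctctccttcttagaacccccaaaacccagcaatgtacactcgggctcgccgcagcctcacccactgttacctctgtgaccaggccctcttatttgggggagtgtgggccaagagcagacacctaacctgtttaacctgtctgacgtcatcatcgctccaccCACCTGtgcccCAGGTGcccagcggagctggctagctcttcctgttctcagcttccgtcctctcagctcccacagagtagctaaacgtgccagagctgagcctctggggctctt

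Across all genes, no gene passed the test between the carcinosarcomas and the adenocarcinomas. With all 8 KP tumours, 0 of 16147 genes tested had an adjusted p under 0.05 (0%) by edgeR's quasi-likelihood test, and the smallest adjusted p was 0.099. At an unadjusted p under 0.05 there were 1926 genes, 11.9% of those tested, with 631 (3.91%) higher and 1295 (8.02%) lower in carcinosarcomas. Every carcinosarcoma lay above every adenocarcinoma for 511 genes (3.16%) and below for 525 (3.25%). Without 90.01A, 0 of 16114 genes (0%) passed, the smallest adjusted p was 0.0888, and 2015 (12.5%) had an unadjusted p under 0.05, 629 (3.9%) higher and 1386 (8.6%) lower. Groups then did not overlap for 773 genes above (4.8%) and 902 below (5.6%). DESeq2 called 183 genes with all 8 tumours, 40 higher and 143 lower in carcinosarcomas, and 254 without 90.01A, 43 higher and 211 lower. Limma on the deposited log2 values called 1 and 5 genes in the same comparisons, all lower in carcinosarcomas. Leaving out 1 further tumour at a time, edgeR called 0 to 2 genes with the other KP tumours and 0 to 54 without 90.01A as well, the 54 (13 higher, 41 lower) when adenocarcinoma 39 was left out. The median log2 fold change over all genes was -0.11 with all 8 tumours and -0.076 without 90.01A.

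The genes named next had the smallest p in each direction, and none of them passed the test. Of those higher in carcinosarcomas, Comp, which encodes a cartilage matrix protein, had 97.1, 79.0 and 4.46 CPM in carcinosarcomas against 1.72, 0.804, 0.255, 2.27 and 1.36 CPM in adenocarcinomas (log2 fold change 5.54 ± 1.04 SE, adjusted p = 0.099). The carcinosarcomas all lay above the adenocarcinomas, with 5 close to them. Raly, an RNA-binding protein gene, had 287, 378 and 458 CPM in carcinosarcomas against 216, 150, 229, 202 and 172 CPM in adenocarcinomas (0.95 ± 0.19, adjusted p = 0.099). Gtpbp3, which modifies mitochondrial tRNA, had 43.9, 47.7 and 66.9 CPM in carcinosarcomas against 18.1, 24.4, 11.0, 33.0 and 14.3 CPM in adenocarcinomas (1.39 ± 0.29, adjusted p = 0.17). In neither of these 2 genes did the groups overlap, and each step from highest adenocarcinoma to lowest carcinosarcoma was smaller than the spread within a group. Pold1, the catalytic subunit of DNA polymerase delta, had 31.9, 37.1 and 58.4 CPM in carcinosarcomas against 12.2, 21.8, 29.2, 18.0 and 15.1 CPM in adenocarcinomas (1.14 ± 0.24, adjusted p = 0.17). Fnbp1, Zfp568, Hsd17b12 and Nup160, the last a nuclear pore gene, were also above in all 3 carcinosarcomas, with log2 fold changes of 1.00, 1.13, 0.77 and 0.89. Aak1, a kinase gene of endocytosis, joined them by its rank without 90.01A, at 1.32 ± 0.34 SE.

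Of the genes lower in carcinosarcomas, Asrgl1, an asparaginase gene, had 7.35, 5.60 and 3.06 CPM in carcinosarcomas against 23.2, 10.8, 22.7, 15.5 and 29.6 CPM in adenocarcinomas (log2 fold change -1.93 ± 0.41 SE, adjusted p = 0.17). All 3 carcinosarcomas lay below every adenocarcinoma for Asrgl1. Pias3, Tmem19, Rnf165, Cds1, Ttyh2 and Sspn also lay below in all 3 carcinosarcomas, with log2 fold changes from -2.87 for Cds1, an enzyme of phosphatidylinositol synthesis, to -0.92 for Tmem19. Barx2, Endov and Dsc3 overlapped only through 90.01A and lay below once it was left out. Dsc3, which encodes the desmosomal cadherin desmocollin 3, had 0, 0.129 and 0.127 CPM in carcinosarcomas against 77.0, 0, 123, 0.129 and 201 CPM in adenocarcinomas. Adenocarcinoma 39 was as low in Dsc3 as the carcinosarcomas, apart by less than 1 read. Likewise Mrpl45 and Akap12 lay above in the carcinosarcomas only without 90.01A, with log2 fold changes of 0.85 ± 0.19 and 3.16 ± 0.79, and Sdk2 overlapped in both fits. Outside the rule, and chosen after their values were seen, Tenm2 had 0.0623, 0 and 0.0637 CPM in carcinosarcomas against 37.8, 0.603, 9.32, 0.259 and 32.7 CPM in adenocarcinomas. Tesc had 22.6, 19.5 and 5.86 CPM in carcinosarcomas against 0.0638 to 0.359 CPM in adenocarcinomas. Both pairs of groups were apart, and Tenm2 was below 1 CPM in adenocarcinomas 90.01A and 39 as well.

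**Figure D2:**
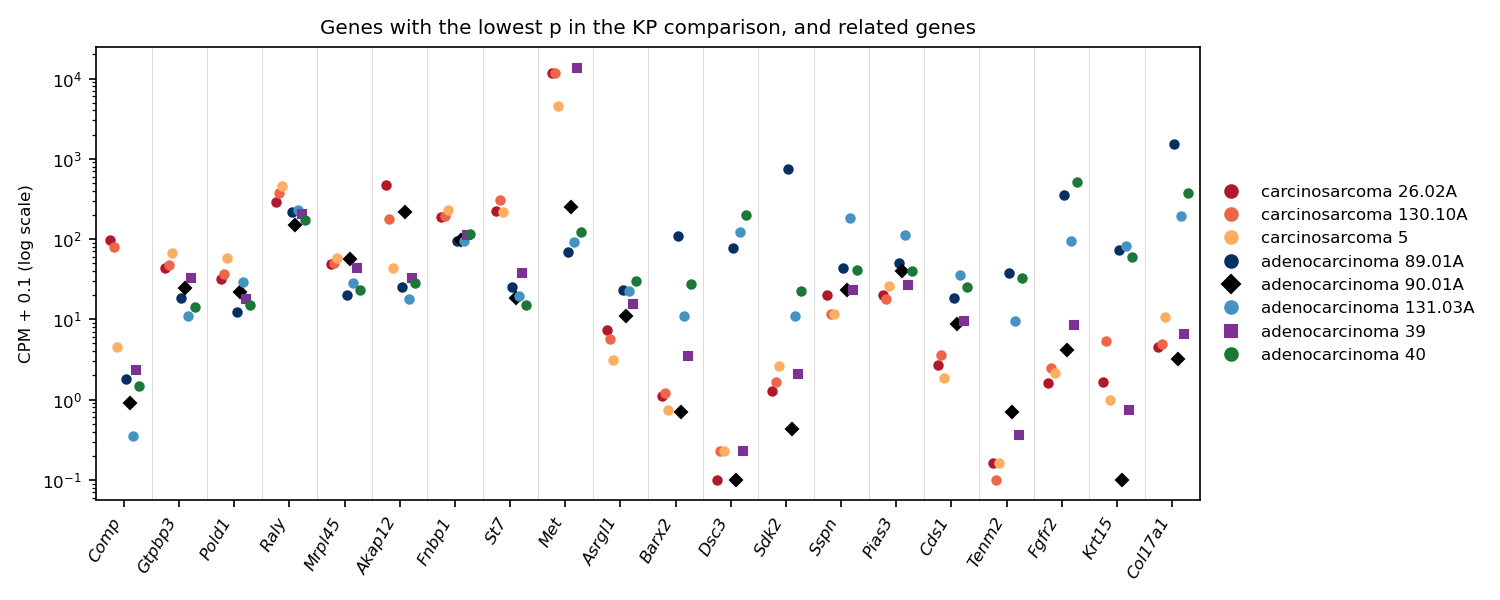
Levels of genes with the smallest p in each direction and of related genes, as CPM plus 0.1 on a log axis, with 1 point per KP tumour. Raly is at 287 to 458 CPM in carcinosarcomas and 150 to 229 CPM in adenocarcinomas, and Asrgl1 is at 3.06 to 7.35 CPM in carcinosarcomas and 10.8 to 29.6 CPM in adenocarcinomas.

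Mesenchymal genes did not set the carcinosarcomas above the adenocarcinomas. Of the 14 mesenchymal transcription factor genes, 0 had an unadjusted p under 0.05 in the higher direction and 2 (Snai2 and Zeb1) in the lower, beside 3.91% and 8.02% of all genes. In all 3 carcinosarcomas 0 lay above and 2 below, beside 3.16% and 3.25% of all genes, and the median log2 fold change was -0.30. Without 90.01A, 1 of the 14 (Snai2) had an unadjusted p under 0.05 in the lower direction. Snai2, which encodes the repressor Slug and is also a gene of basal mammary cells, had 4.42, 7.86 and 5.29 CPM in carcinosarcomas against 217, 27.5, 33.8, 9.26 and 51.1 CPM in adenocarcinomas (log2 fold change -3.53 ± 1.17 SE, adjusted p = 0.34). Zeb1 had 21.6, 22.3 and 18.9 CPM in carcinosarcomas against 17.8, 200, 13.3, 65.6 and 47.8 CPM in adenocarcinomas. For Snai2 every carcinosarcoma lay below every adenocarcinoma, and for Zeb1 the carcinosarcomas lay among the lower adenocarcinomas. S100a4 had 8.85, 12.7 and 22.4 CPM in carcinosarcomas against 93.8, 404, 66.2, 128 and 25.2 CPM in adenocarcinomas, again with no overlap. Over 15 genes of mesenchymal cytoskeleton and surface, the summed level was 6548 to 9028 CPM in carcinosarcomas, 3303 to 9457 CPM in the 4 other adenocarcinomas and 14111 CPM in 90.01A. Over 20 genes of fibrillar collagens and fibroblast matrix, the median log2 fold change was -0.55, and -0.29 without 90.01A. Within that list, Dcn, a small proteoglycan of fibroblasts, had 52.4, 71.3 and 186 CPM in carcinosarcomas against 148, 2968, 82.7, 743 and 253 CPM in adenocarcinomas.

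Krt5 and several other basal genes were low in the carcinosarcomas, and also in adenocarcinomas 39 and 90.01A. Krt5 had 1.06, 0.773 and 15 CPM in carcinosarcomas against 3312, 0.402, 765, 3.30 and 568 CPM in adenocarcinomas. Col17a1, a hemidesmosome collagen, had 4.48, 4.83 and 10.6 CPM in carcinosarcomas against 1540, 3.15, 194, 6.41 and 370 CPM in adenocarcinomas (log2 fold change -5.99 ± 1.95 SE, adjusted p = 0.34). The adenocarcinomas divided into high (89.01A, 131.03A, 40) and low (90.01A, 39) levels for both genes, and the low ones overlapped the carcinosarcomas. Of 16 basal genes, 1 (Itga6) had an unadjusted p under 0.05 in the higher direction and 4 (Krt5, Krt15, Dsc3 and Col17a1) in the lower, beside 3.91% and 8.02% of all genes. Their median log2 fold change was -1.16 beside -0.11 over all genes, and 2 lay above and 0 below in all 3 carcinosarcomas, beside 3.16% and 3.25%. The counts by p were 0 higher and 5 lower without 90.01A, and 0 higher and 2 lower without carcinosarcoma 26.02A. Their summed level was 1845 to 2271 CPM in carcinosarcomas against 136 CPM in 90.01A, 1449 CPM in 39 and up to 8748 CPM in the others. Itga6, the integrin chain that anchors basal cells to laminin, went the other way, with 1059, 958 and 710 CPM in carcinosarcomas against 594, 87.7, 425, 411 and 579 CPM in adenocarcinomas (1.12 ± 0.52, adjusted p = 0.40). It lay above in all 3 carcinosarcomas. Of 15 luminal genes, 2 (Pgr and Cited1) had an unadjusted p under 0.05 in the lower direction and 0 in the higher, with a median log2 fold change of -0.76. Of 10 squamous differentiation genes tested, 1 (Tgm1) was on the higher side and 2 (Sprr1a and Krt4) on the lower by the same measure, with a median of -1.68. Fgfr2, a growth factor receptor, had 1.49, 2.38 and 2.04 CPM in carcinosarcomas against 355, 4.08, 93.4, 8.48 and 508 CPM in adenocarcinomas. It split the adenocarcinomas in the same way as Krt5, but with every carcinosarcoma below (-6.61 ± 1.96, adjusted p = 0.33).

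Across the 2000 most variable genes without 90.01A, the carcinosarcomas and adenocarcinoma 39 lay together on the first component, which held 40.3% of the variance. Scores were 34.7 to 51.9 in carcinosarcomas and 36.8 in 39, against -41.4 to -79.9 in 89.01A, 131.03A and 40. Over all genes, Spearman's correlation of 39 with the carcinosarcomas was 0.954 to 0.965, and that among the carcinosarcomas was 0.956 to 0.971. These are descriptions over genes, which are not replicates. The adenocarcinomas thus spanned both ends of this axis. With all 8 tumours, the first component (40%) set 90.01A apart, at 124.3 against -69.6 to 20.2 in the other 7. On the second component (21.1%) the carcinosarcomas were at 40.4 to 54.5 and 39 at 20.6. The remaining adenocarcinomas were at -59.1 to -22.3 there.

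Milk protein genes were at their highest summed level in the carcinosarcomas, with adenocarcinoma 39 nearest to them. Csn1s1, a casein, had 1180, 1094 and 4135 CPM in carcinosarcomas against 20.2, 0.603, 9.70, 504 and 316 CPM in adenocarcinomas. Lcn2, a secreted iron-carrier-binding protein, had 5648, 3264 and 2510 CPM in carcinosarcomas against 368, 10.9, 339, 1511 and 534 CPM in adenocarcinomas. Glycam1 had 22.9, 36.5 and 54 CPM in carcinosarcomas against 0, 0, 0.128, 18.6 and 0 CPM in adenocarcinomas. In all 3 genes the carcinosarcomas lay above, and the nearest adenocarcinoma was 39. Of the 12 genes, 11 had a log2 fold change above 0, 2 had an unadjusted p under 0.05 in the higher direction and 3 were above in all carcinosarcomas (beside 3.91% and 3.16% of all genes), with a median log2 fold change of 2.69. The summed level was 8408 to 14367 CPM in carcinosarcomas and 292 to 5569 CPM in adenocarcinomas. The number with an unadjusted p under 0.05 was 1 without 90.01A, and 0 without carcinosarcoma 130.10A, 1 without 26.02A, 89.01A, 131.03A or 40 and 3 without carcinosarcoma 5. Without adenocarcinoma 39, 9 of the 12 had an unadjusted p under 0.05 in the higher direction and 8 lay above (66.7%, beside 5.14% of all genes). The sources used here do not give how reads shared by similar casein genes were counted.

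Cartilage genes did not move together. Col9a1, which encodes a chain of cartilage collagen IX, had 1094, 523 and 611 CPM in carcinosarcomas against 73.4, 0.134, 82.9, 198 and 21.3 CPM in adenocarcinomas (log2 fold change 3.30 ± 1.40 SE, adjusted p = 0.37). Like Comp, it lay above in all 3 carcinosarcomas. Col2a1, the main collagen of cartilage, had 11.2, 36.8 and 68.1 CPM in carcinosarcomas against 631, 0.201, 14, 1.88 and 8.39 CPM in adenocarcinomas. The highest level of Col2a1 was in adenocarcinoma 89.01A. Of 19 cartilage genes tested, 2 (Comp and Col9a1) had an unadjusted p under 0.05 in the higher direction and 1 (Cnmd) in the lower, beside 3.91% and 8.02% of all genes, with a median log2 fold change of -0.31. Without 90.01A these counts were 2 and 3. Of 9 bone genes tested, 1 had an unadjusted p under 0.05, Runx2, the master transcription factor gene of osteoblasts, with 20.4, 25.3 and 31.0 CPM in carcinosarcomas against 58.5, 42.5, 40.5, 40.0 and 33.9 CPM in adenocarcinomas. Runx2 lay below in all 3 carcinosarcomas (-0.75 ± 0.31, adjusted p = 0.36), and the bone list had a median of -0.099. Among 15 metalloproteinases and inhibitors, 4 had an unadjusted p under 0.05 in the lower direction (Mmp3, Mmp11, Timp2 and Timp3) and 0 in the higher, with a median of -0.85. Without 90.01A, 1 (Timp3) was on the lower side and 1 (Adamts4) on the higher, with a median of -0.044.

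Genes of cell division and DNA replication had log2 fold changes above 0, though none passed the test. All 20 proliferation genes had a log2 fold change above 0, with a median of 0.59, and 8 of the 20 had an unadjusted p under 0.05 in the higher direction, beside 3.91% of all genes. The number was 5 without 90.01A, 89.01A or 40, and 4 without carcinosarcoma 130.10A. Bub1b, a spindle checkpoint kinase, had 152, 230 and 176 CPM in carcinosarcomas against 53.4, 57.2, 148, 76.1 and 67.9 CPM in adenocarcinomas (log2 fold change 1.21 ± 0.35 SE, adjusted p = 0.33). Pcna, the sliding clamp of DNA polymerases, had 111, 126 and 133 CPM in carcinosarcomas against 65.9, 64.8, 96.1, 79.0 and 71.3 CPM in adenocarcinomas (0.71 ± 0.21, adjusted p = 0.33). These 2 genes, with Ttk and Mcm5, were the 4 of the list that lay above in all 3 carcinosarcomas, beside 3.16% of all genes. The nearest adenocarcinoma for Bub1b and Pcna was 131.03A. Without 131.03A, 14 of the 20 lay above (70%, beside 6.27% of all genes) and 14 had an unadjusted p under 0.05. Mki67, the usual mark of cycling cells, had 448, 687 and 332 CPM in carcinosarcomas against 206, 163, 460, 280 and 299 CPM in adenocarcinomas, so that its groups overlapped through 131.03A alone. Among 21 homologous recombination genes, 4 had an unadjusted p under 0.05 in the higher direction (Brca1, Bard1 and Atm among them) and 0 in the lower, and 0 lay above in all 3 carcinosarcomas. Without 90.01A the count in the higher direction was 2, with Brca1 among them. Brca1 had 48.6, 73.6 and 73.4 CPM in carcinosarcomas against 17.8, 38.6, 36.6, 55.8 and 21.2 CPM in adenocarcinomas (0.94 ± 0.31, adjusted p = 0.34). The nearest adenocarcinoma, 39, overlapped carcinosarcoma 26.02A in Brca1. Of 16 genes of end joining and resection control tested, 3 (Trp53bp1, Rif1 and Polq) had an unadjusted p under 0.05 in the higher direction and 0 in the lower, and 0 of the 16 in either direction without 90.01A. Of 14 hypoxia and glycolysis genes tested, 1 (Eno1, a glycolytic enzyme gene) was on the higher side and 0 on the lower, with a median of 0.23.

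Several genes of the p53 response had lower values in the carcinosarcomas, though none passed the test. Sesn2, a stress-response gene, had 13.1, 15.1 and 13.8 CPM in carcinosarcomas against 58.7, 24.8, 21.8, 21.0 and 28.8 CPM in adenocarcinomas (log2 fold change -1.15 ± 0.30 SE, adjusted p = 0.30). Phlda3, an inhibitor of Akt, had 15.3, 19.8 and 18.4 CPM in carcinosarcomas against 73.2, 30.9, 55.6, 26.7 and 60.1 CPM in adenocarcinomas (-1.47 ± 0.61, adjusted p = 0.36). Both lay below in all 3 carcinosarcomas, and they were the 2 of the 13 listed genes that did so, beside 3.25% of all genes. Cdkn1a, which encodes the cell-cycle inhibitor p21, had 25.7, 21.5 and 19.6 CPM in carcinosarcomas against 14.7, 49.1, 67.1, 31.5 and 46.0 CPM in adenocarcinomas. Of 13 genes on the list, Trp53 included, 4 (Cdkn1a, Phlda3, Zmat3 and Sesn2) had an unadjusted p under 0.05 in the lower direction and 0 in the higher, beside 8.02% and 3.91% of all genes. Without 90.01A, 2 (Phlda3 and Sesn2) were on the lower side and 1 (Bax) on the higher, beside 8.6% and 3.9%. The summed level was 359 to 474 CPM in carcinosarcomas and 486 to 620 CPM in adenocarcinomas.

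Interferon response and antigen presentation genes had higher values in the carcinosarcomas once 90.01A was left out, though none passed the test. Ifit2, an interferon-induced antiviral gene, had 153, 209 and 200 CPM in carcinosarcomas against 10.7, 271, 49.9, 62.0 and 52.1 CPM in adenocarcinomas. Isg15, an interferon-induced ubiquitin-like protein, had 105, 193 and 200 CPM in carcinosarcomas against 2.62, 184, 75.7, 63.4 and 47.6 CPM in adenocarcinomas. In both genes 90.01A reached the carcinosarcomas and 89.01A was lowest. All 18 interferon response genes had a log2 fold change above 0, with a median of 1.04, but 0 had an unadjusted p under 0.05 and 1, Mx2, lay above in all 3 carcinosarcomas. The shares of all genes were 3.91% by that p in the higher direction and 3.16% above. Without 90.01A the median was 1.80, 4 of 18 had an unadjusted p under 0.05 and 16 of 18 lay above (88.9%, beside 4.8% of all genes). The 4 became 1 without 89.01A as well, 2 without 26.02A, 130.10A, 5 or 40, and 7 without 39, while 16 or 17 of the 18 lay above in each case. Of 13 antigen presentation genes, 2 lay above with all 8 tumours, and 9 without 90.01A (69.2%). B2m, the light chain of MHC class I, had 2765, 3011 and 2559 CPM in carcinosarcomas against 299, 2512, 1229, 1466 and 890 CPM in adenocarcinomas (log2 fold change 1.12 ± 0.54 SE, adjusted p = 0.42). Summed levels of the interferon list were 2146 to 3357 CPM in carcinosarcomas, 83.1 to 1214 CPM in the 4 other adenocarcinomas and 3691 CPM in 90.01A.

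**Figure D3:**
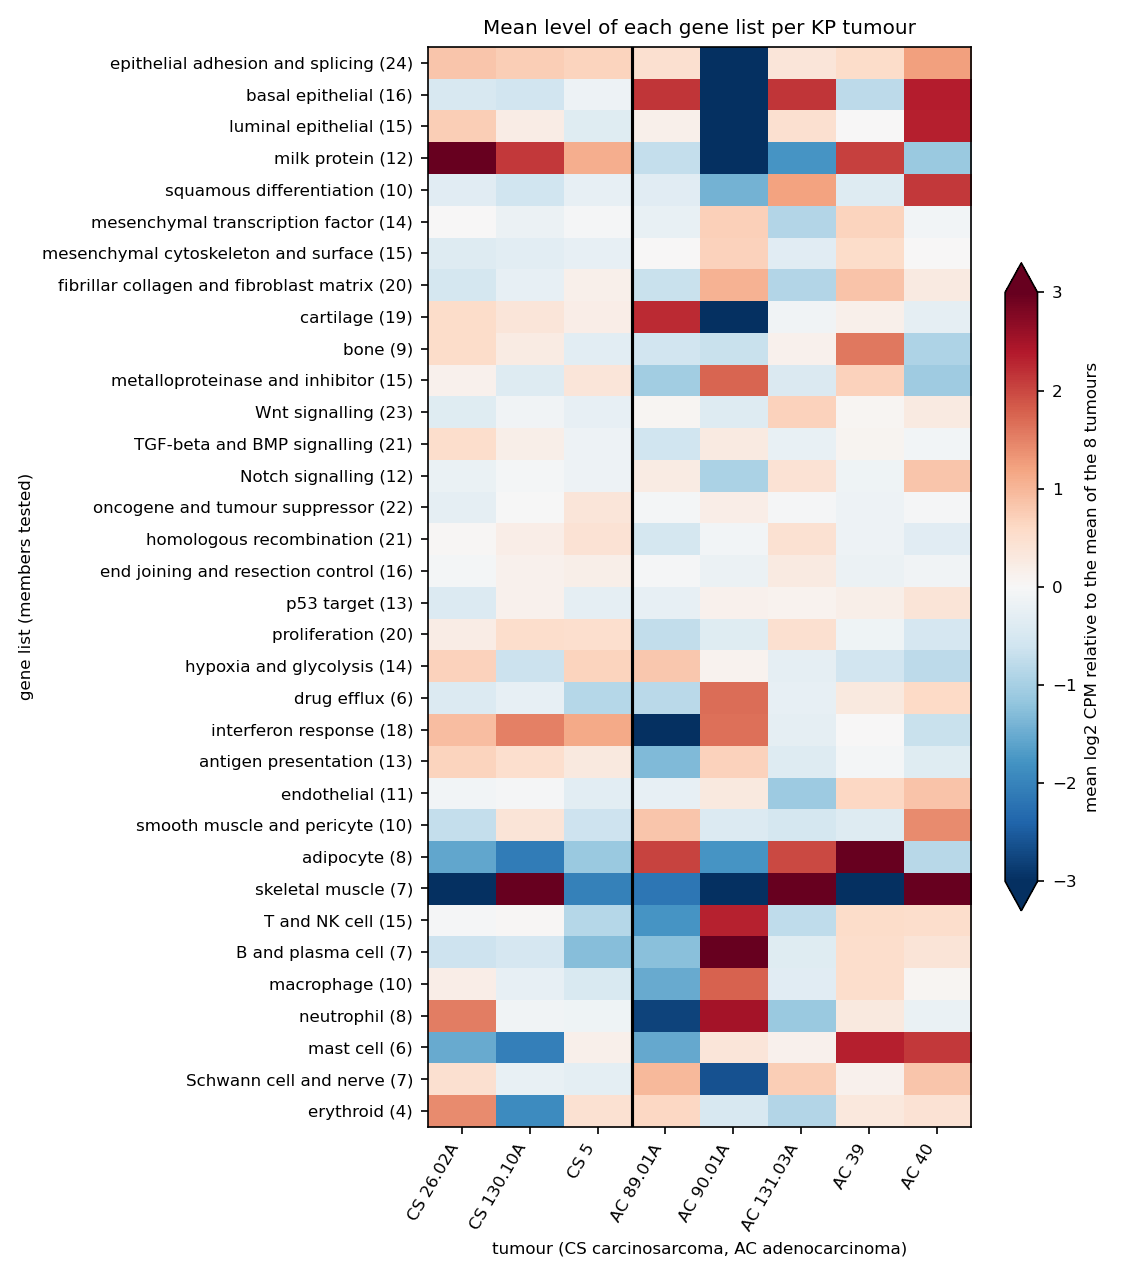
Mean level of each gene list in each KP tumour, as the mean log2 CPM of its tested members relative to the mean of the 8 tumours, with carcinosarcomas left of the line and colours cut at 3 in either direction. The epithelial list stands at -4.88 in 90.01A and at 0.67 to 0.84 in the carcinosarcomas, and the interferon list at -4.27 in 89.01A and 0.91 to 1.51 in the carcinosarcomas.

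Markers of other cell types moved with these groups in part. Of 8 adipocyte genes tested, 7 had an unadjusted p under 0.05 in the lower direction (8.02% of all genes) and the remaining one, Fabp4, lay below in all 3 carcinosarcomas. The 7 became 4 without carcinosarcoma 130.10A, and stayed at 7 without 90.01A. Adipoq, the fat cell hormone adiponectin, had 0.0623, 0 and 0.255 CPM in carcinosarcomas against 4.21, 0, 5.36, 13.5 and 0.359 CPM in adenocarcinomas. Its carcinosarcoma values are a few reads or none, which leaves little room for a lower value. Lep was likewise near 0 in the carcinosarcomas, and was highest in adenocarcinoma 39, at 11.3 CPM. Without 39 the 7 became 6. The summed adipocyte level was 15 to 40 CPM in carcinosarcomas and 44.6 to 163 CPM in adenocarcinomas. The macrophage list summed to 1151 to 1954 CPM in carcinosarcomas against 554 to 2498 CPM in adenocarcinomas other than 90.01A, and the endothelial list to 398 to 449 CPM against 229 to 777 CPM in all 5. T and NK cell markers summed to 22.4 to 46.1 CPM in carcinosarcomas against 28.4 to 48.4 CPM in adenocarcinomas other than 90.01A, which had 184 CPM. B and plasma cell markers summed to 8.29 to 27.3 CPM in carcinosarcomas against 16.1 to 76.5 CPM in adenocarcinomas other than 90.01A. Neutrophil markers summed to 54.5 to 132 CPM in carcinosarcomas against 2.75 to 103 CPM in the same 4 adenocarcinomas and 592 CPM in 90.01A. Smooth muscle and pericyte markers summed to 569 to 969 CPM in carcinosarcomas against 563 to 1911 CPM in adenocarcinomas, and Schwann cell and nerve markers, with Sox10 among them, to 275 to 444 CPM in carcinosarcomas against 28.1 to 442 CPM in adenocarcinomas. Skeletal muscle markers spanned 3.68 to 1516 CPM in carcinosarcomas and 2.95 to 2110 CPM in adenocarcinomas, with Tnnc2 at 0 in all 8 tumours. Mast cell markers summed to 1.93 to 13.2 CPM in carcinosarcomas against 3.06 to 68.8 CPM in adenocarcinomas, and erythroid markers to 9.34 to 111 CPM in carcinosarcomas against 19.4 to 70.2 CPM in adenocarcinomas. Liver markers were at or under 0.359 CPM in every tumour. By unadjusted p under 0.05, 1 of 11 endothelial, 1 of 10 smooth muscle and pericyte, 2 of 15 T and NK cell, 3 of 7 B and plasma cell and 1 of 10 macrophage genes tested were on the lower side, beside 8.02% of all genes. Without 90.01A the T and NK cell and the B and plasma cell counts were 1 each (Ncr1 and Cd79b), beside 8.6% of all genes. None of the 7 skeletal muscle, 8 neutrophil, 6 mast cell and 4 erythroid genes tested was on either side, and 1 of 7 Schwann cell genes, Cdh19, was on the higher side. The part of these cell types in the gene differences above was not tested.

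No gene of the signalling, drug efflux and oncogene lists passed the test, and the shares of all genes with an unadjusted p under 0.05 to set beside the counts here are 3.91% higher and 8.02% lower. Lef1, a transcription factor of the Wnt pathway, had 47.9, 21.3 and 8.99 CPM in carcinosarcomas against 0.575, 1.61, 5.94, 3.82 and 2.22 CPM in adenocarcinomas (log2 fold change 3.20 ± 1.10 SE, adjusted p = 0.34). Wnt5a, a Wnt ligand, had 37.9, 18.0 and 25.4 CPM in carcinosarcomas against 31.3, 98.1, 41.3, 111 and 433 CPM in adenocarcinomas (-2.40 ± 0.71, adjusted p = 0.33). Lef1 lay above in all 3 carcinosarcomas, and Wnt5a overlapped at carcinosarcoma 26.02A. Of 23 Wnt genes, 1 had an unadjusted p under 0.05 in the higher direction and 3 in the lower (Wnt5a, Lgr5 and Rspo2), with a median log2 fold change of -0.80, and 1 and 4 without 90.01A. Bmp7, a bone morphogenetic protein gene, had 2.49, 1.10 and 0.956 CPM in carcinosarcomas against 168, 0.201, 96.4, 0.971 and 82.3 CPM in adenocarcinomas, the same split of adenocarcinomas as for Krt5. Of 21 TGF-beta and BMP genes, Bmp5 was on the higher side and Bmp7 on the lower by the same measure (1 each), with a median of 0.30, and of 12 Notch genes tested, Dll4 alone (1) on the lower side, with a median of -0.47. Without 90.01A the TGF-beta and BMP counts were 2 higher and 2 lower, and the 1 Notch gene on the lower side was Jag2. Mycn, a MYC family gene, had 0.436, 0.773 and 1.08 CPM in carcinosarcomas against 11.0, 1.47, 7.66, 1.29 and 12.5 CPM in adenocarcinomas, with no overlap. Pgr, the progesterone receptor gene, had 0.436, 0.773 and 3.19 CPM in carcinosarcomas against 14.7, 1.34, 12.3, 1.42 and 218 CPM in adenocarcinomas. Both were lowest among adenocarcinomas in 90.01A and 39. Of the drug efflux genes, Abcb1b had 2.87, 7.09 and 3.00 CPM in carcinosarcomas against 9.38, 115, 14.3, 37.4 and 12.1 CPM in adenocarcinomas, with no overlap (-3.12 ± 1.03, adjusted p = 0.34). Of 6 efflux genes tested, 3 (Abcb1a, Abcb1b and Abcc1) had an unadjusted p under 0.05 in the lower direction, and 1 (Abcb1b) without 90.01A. Of 22 oncogenes and tumour suppressors, 1 (Nf1) was on the higher side and 2 (Fgfr2 and Mycn) on the lower, with a median log2 fold change of -0.22, and 2 (Birc2 and Birc3) and 3 without 90.01A. Birc2 had 42.4, 111 and 2554 CPM in carcinosarcomas against 29.2 to 66.8 CPM in adenocarcinomas other than 90.01A. Birc3 had 43.3, 98.8 and 901 CPM against 24.5 to 48.2 CPM. Both were thus highest in carcinosarcoma 5, and 26.02A lay among these adenocarcinomas.

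Met, a receptor tyrosine kinase gene at 17463800 to 17573980 on chromosome 6 (GRCm38, GENCODE vM21), had 11850, 11857 and 4523 CPM in carcinosarcomas against 69.8, 254, 91.1, 13675 and 123 CPM in adenocarcinomas. All 3 carcinosarcomas and adenocarcinoma 39 were high, and the other 4 adenocarcinomas had 254 CPM or less. Capza2, the next gene, had 7409, 9121 and 5716 CPM in carcinosarcomas against 196, 414, 255, 6427 and 255 CPM in adenocarcinomas. St7, which follows, had 224, 310 and 219 CPM in carcinosarcomas against 25.3, 18.1, 19.5, 37.7 and 14.9 CPM in adenocarcinomas (log2 fold change 3.44 ± 0.95 SE, adjusted p = 0.31). St7 lay above in all 3 carcinosarcomas and 39 was not high for it.

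The genes around Met, chosen after their values were seen, were counted in a window of 2.5 Mb on each side. A gene counted as high in a tumour at 3 times or more the median of the other 7 tumours and at 5 CPM or more. Of 23 genes tested there, 10 (43.5%) were high in carcinosarcoma 26.02A, 6 (26.1%) in 130.10A and 8 (34.8%) in 5, against 5 (21.7%) in adenocarcinoma 39. Over all genes the shares were 1.57%, 1.56%, 1.54% and 1.67% in those tumours. In the other 4 adenocarcinomas 0 to 2 of the 23 genes were high. The reach of the block differed between the tumours. Tes, upstream of Met, had 7549, 116 and 3050 CPM in carcinosarcomas against 46.2, 57.5, 127, 1437 and 126 CPM in adenocarcinomas, so that it was high in 26.02A, 5 and 39 only. Downstream, Cttnbp2 had 199, 1710 and 5.67 CPM in carcinosarcomas against 1.54 to 47.1 CPM in adenocarcinomas, and was highest in 130.10A. Cav1, between Tes and Met, had 351, 232 and 409 CPM in carcinosarcomas against 156, 554, 117, 311 and 248 CPM in adenocarcinomas, and was high in none. DNA copy number was not analysed here.

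A second window lay around Yap1, a transcriptional coactivator gene of the Hippo pathway on chromosome 9. Yap1 had 246, 503 and 4627 CPM in carcinosarcomas against 411, 8775, 147, 200 and 236 CPM in adenocarcinomas. Birc2, an inhibitor of apoptosis, had 42.4, 111 and 2554 CPM in carcinosarcomas against 66.8, 1767, 29.2, 37.4 and 51.4 CPM in adenocarcinomas. In both genes carcinosarcoma 5 and adenocarcinoma 90.01A were high and the other 6 were not. Of 22 genes tested in the window, 10 (45.5%, beside 1.54% of all genes) were high in carcinosarcoma 5 and 14 (63.6%, beside 5.92%) in 90.01A. Around Mcl1 on chromosome 3, 62 of 106 (58.5%) were high in adenocarcinoma 131.03A, beside 4.77% of all genes. Pias3, named above, lies in that window and was highest in the same tumour.

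**Figure D4:**
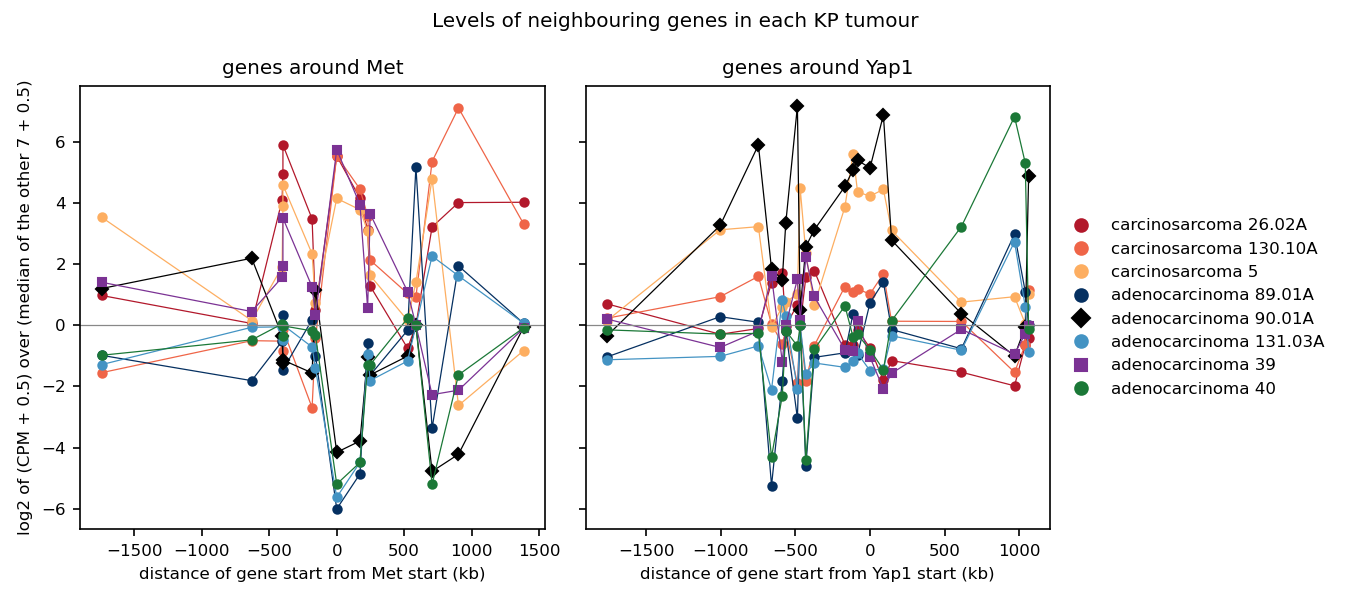
Genes around Met and Yap1 by the distance of their starts in kb, with the level of each KP tumour as log2 of CPM plus 0.5 over the median of the other 7 tumours plus 0.5. Lines join the genes of 1 tumour. Around Met the carcinosarcomas and adenocarcinoma 39 are high, and around Yap1 carcinosarcoma 5 and adenocarcinoma 90.01A.

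Each carcinosarcoma also had genes of its own, given as a description. In 26.02A, Dcpp1 had 55.4 CPM against at most 0.511 CPM elsewhere, and Bmp5, a bone morphogenetic protein gene, 48.1 CPM against at most 1.74 CPM. In 130.10A, Col10a1, a collagen of maturing cartilage, had 34.7 CPM where the next tumour had 7.85 CPM, and Oas2, an interferon-induced antiviral enzyme, 274 CPM where the next had 119 CPM. In carcinosarcoma 5, Foxj1, the factor of motile cilia, had 128 CPM where the next tumour had 16.9 CPM, and Fndc3c1 48.1 CPM where the next had 1.54 CPM.

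The same histology contrast was available in L1363P tumours of the same run, which share no samples with the KP contrast. The carcinosarcomas of the genotypes were not alike in labelled share of epithelial tissue. It went down to 2% in those of L1363P, and some of them were below 75%, lower than any KP carcinosarcoma. The contrasts therefore differ in epithelial share as well as in genotype. How much of each difference goes with that share was not tested. The difference between the contrasts passed for 2 of 16147 genes (0.0124%), Pold1 and B4galnt2, and without 90.01A for 1 of 16114 (0.00621%). For both genes the log2 fold change of carcinosarcomas over adenocarcinomas, not the level, was higher in KP than in L1363P. Pold1 had 31.9, 37.1 and 58.4 CPM in KP carcinosarcomas against 12.2 to 29.2 CPM in KP adenocarcinomas, as above. In L1363P tumours it had 17.1, 24.5 and 33.8 CPM (lowest, median and highest of 9) in carcinosarcomas against 38.2, 39.8 and 63.8 CPM in adenocarcinomas. Within each genotype the groups did not overlap, in opposite directions. The difference of the log2 fold changes was 2.09 ± 0.33 (SE, adjusted p = 0.0131), and 2.14 without 90.01A (adjusted p = 0.0222). It was 1.79 (adjusted p = 0.0795) without KP carcinosarcoma 5. With only the L1363P carcinosarcomas of at least 75% labelled epithelium, Pold1 was the 1 gene that passed (adjusted p = 0.0458). Leaving out 1 tumour at a time, 0 (without KP carcinosarcoma 5) to 116 genes passed (without KP adenocarcinoma 131.03A). Of the 116, the log2 fold change was higher in KP for 89 and lower in KP for 27. Pcna and Pole2 had the same order of levels but did not pass. Pcna averaged 123 ± 11.4 CPM in KP carcinosarcomas and 75.4 ± 12.8 CPM in KP adenocarcinomas, against 96.0 ± 19.9 CPM in L1363P carcinosarcomas and 148 ± 42.8 CPM in L1363P adenocarcinomas (SD over 3, 5, 9 and 3 tumours). Scrn2, Raly, Pole2, Pcna and Bmyc followed Pold1 in the higher direction by the same ranking, with differences of 1.23 for Raly to 3.35 for Bmyc on the log2 scale. Bmyc was at 19.6 CPM in L1363P adenocarcinoma 52, and at 2.60 and 2.97 CPM in the other L1363P adenocarcinomas. Pole2 was at 51.4 CPM in L1363P adenocarcinoma 26.2, and at 20.7 and 21.7 CPM in the others. Over the other settings and tumours left out, the difference went down to 1.77 for Bmyc and 1.21 for Pole2. In the lower direction the smallest p belonged to Rab31, a vesicle transport GTPase gene, with a difference of -1.62 ± 0.31. Rab31 averaged 111 ± 12.0 CPM in KP carcinosarcomas and 171 ± 35.5 CPM in KP adenocarcinomas, against 164 ± 19.1 CPM in L1363P carcinosarcomas and 82.4 ± 30.9 CPM in L1363P adenocarcinomas. Gdpd3, Pld1, Mmp11, Dnajc18 and Tmcc2 came next, at -0.97 to -2.42. None of these 11 genes passed, with adjusted p from 0.0967 to 0.125.

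B4galnt2, a glycosyltransferase gene, had 0.193 to 1.34 CPM in KP carcinosarcomas against 0.128 to 0.574 CPM in KP adenocarcinomas. In L1363P tumours it had 0.0644, 0.405 and 0.787 CPM (lowest, median and highest) in carcinosarcomas against 0.308, 2.07 and 61.9 CPM in adenocarcinomas. The difference of 7.12 ± 1.20 on the log2 scale (adjusted p = 0.0203) rests on 1 L1363P adenocarcinoma, 7.2, at 61.9 CPM, and was 2.97 (adjusted p = 0.155) without it. Without 90.01A the adjusted p was 0.0701.

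**Figure D5:**
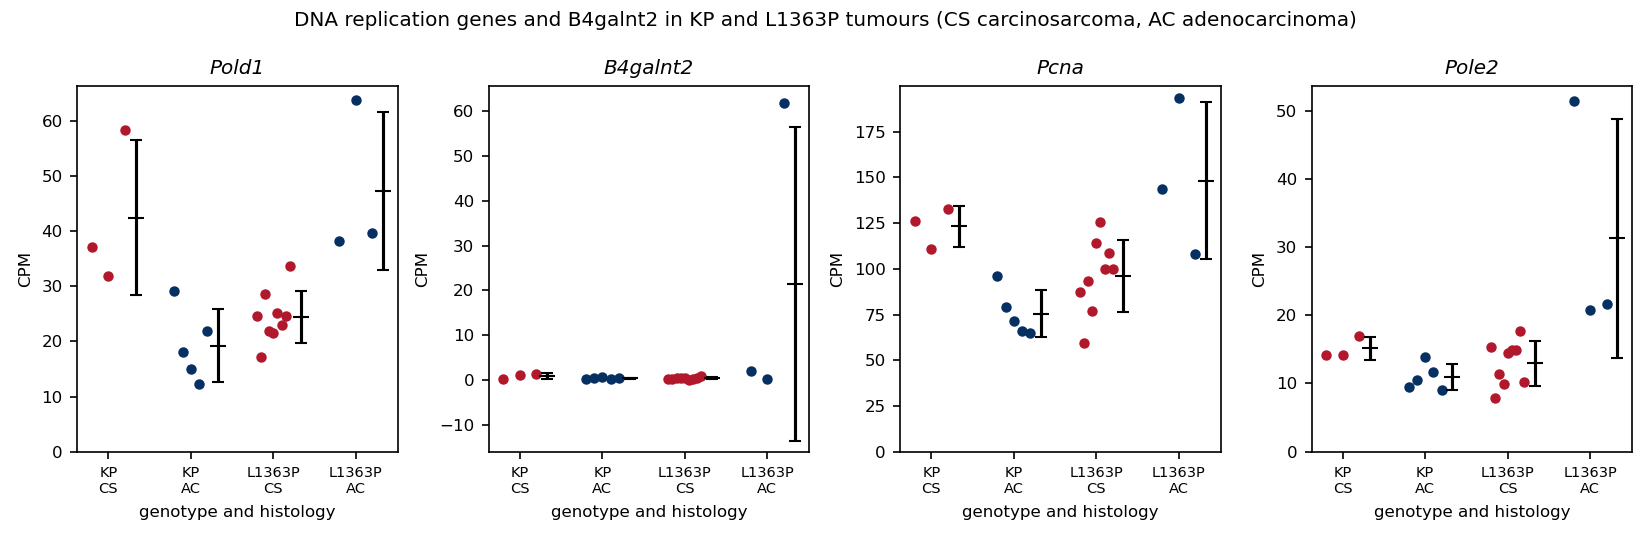
Pold1, B4galnt2, Pcna and Pole2 in KP carcinosarcomas and adenocarcinomas and in L1363P carcinosarcomas and adenocarcinomas, in CPM with 1 point per tumour and the mean with its SD beside each group. Pold1 is highest in KP carcinosarcomas (31.9 to 58.4 CPM) and L1363P adenocarcinomas (38.2 to 63.8 CPM).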

How the data were processed

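RNA of 73 mouse mammary tumours was extracted with TRIzol and made into strand-marked polyA libraries, per the labels' protocols. The authors deposited raw read counts per gene and, in another table, log2 normalized counts. Build mm10, DESeq, featureCounts 2.0.0, STAR 2.7.3a and cutadapt 2.10 are listed in the submitters' processing notes. The sources used here do not say whether reads were counted by strand. In the counts, 24 of 39438 symbols had been turned into dates and were left as they were.

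Groups came from the genotype and histology labels. The 29 libraries of 1 run were fitted in 5 groups with edgeR 4.0.16 (R 4.3.3), using genes kept by filterByExpr at a minimum count of 10, TMM scaling, the quasi-likelihood test and Benjamini-Hochberg adjustment at 0.05. The contrast was carcinosarcoma minus adenocarcinoma in KP tumours, with and without 90.01A, and the same minus the L1363P contrast. CPM values use the library totals and TMM scaling of the fit of all 8 KP tumours. Alternatives used DESeq2 1.42.0, limma 3.58.1, other scaling and filters, and the title codes KDV and BUR, whose meaning the labels do not give. The fit of the KP contrast was also run on simulated counts, with a required recovery only at a low simulated spread. Its power at the spread of these tumours is not given here. No 2 of the 8 KP libraries agreed within sampling noise.

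Trp53, Epcam, Cdh1, Krt8, Krt14 and Vim were named in every tumour, then, as fewer than 5 genes passed in each direction, the 8 genes with the smallest p per direction and fit (mean log2 CPM of at least 1, no Gm or Rik symbols), and by the same rule 6 per direction for the difference of contrasts. Genes of single tumours were the 6 farthest from the other 7. List members with p under 0.05 or with separate groups, and genes of the Met, Yap1 and Mcl1 windows, were chosen after their values were seen. The members and the 23 gene lists and 12 marker lists were chosen with earlier results of these data known. A few results, some of them picked by these rules, are not reported here. DNA copy-number data were not analysed here.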

Additional observations from a re-analysis of the deposited data

Results flagged for a closer look

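Of 82 genes given per tumour, 27 had 1 adenocarcinoma set apart from the other 4 by Dixon's criterion. For normally distributed values chance gives about 1 in 20 groups. CPM was used without a log scale, and many of these genes were chosen for their values. The number therefore cannot be set against that rate. The counts were 7 for 89.01A, 9 for 90.01A (Epcam, for which this tumour was set aside, among them), 3 for 131.03A, 4 for 39 and 4 for 40, and they bear on the spread against which the carcinosarcomas were tested.

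In 90.01A, Epcam was lowest of the adenocarcinomas, at 1.47 CPM. The same tumour was highest for Akap12 at 218.5 CPM, Zeb1 at 199.8 CPM, Ifit2 at 271 CPM, Mmp3, a stromal matrix metalloproteinase, at 6255 CPM, S100a4 at 404 CPM, Birc2 at 1767 CPM, Yap1 at 8775 CPM and Dcn at 2968 CPM. Mmp3, Birc2 and Yap1 lie in the same window of chromosome 9.

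In 89.01A, the highest values were those of Barx2 at 110.3 CPM, Sdk2 at 747 CPM, Krt5 at 3312 CPM, Col17a1 at 1540.3 CPM, Snai2 at 217 CPM, Lgr5, a Wnt-pathway receptor, at 132 CPM and Sesn2 at 58.7 CPM.

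In 131.03A, Pias3 was at 111 CPM, within the Mcl1 window in which most genes were high in that tumour. Sspn was at 184 CPM and Bub1b at 148 CPM.

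In 39, Met was at 13675 CPM, Capza2 at 6427 CPM, Csn3, a casein, at 777 CPM and Lep, the leptin gene, at 11.3 CPM. In the carcinosarcomas Met had 4523 to 11857 CPM, Capza2 5716 to 9121 CPM, Csn3 756 to 2382 CPM and Lep 0 to 0.0637 CPM.

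In 40, Pgr was at 218 CPM, Wnt5a at 433 CPM, and the squamous genes Krt4 and Sprr1a at 13.5 and 41.5 CPM.

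The KP and L1363P contrasts differed for Pold1, by 2.09 on the log2 scale, and for B4galnt2, by 7.12. The B4galnt2 value rests on 1 L1363P adenocarcinoma.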

How the results depend on the processing

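With all 8 KP tumours edgeR called 0 genes, also with DESeq2's size factors as scaling, without a filter on low counts and with a term for the BUR code. The count was 183 with DESeq2, 1 with limma, 2 (St7 and Tesc) with the KP libraries fitted alone and 1 (Mup6) among the KDV-coded tumours only. Without 90.01A these counts were 0 for the first 3 settings, then 254 with DESeq2, 5 with limma, 0 with the KP libraries alone and 1 (Pias3) among KDV-coded tumours. The difference between the KP and L1363P contrasts had 390 genes with DESeq2 and 1 (Pold1) with only the L1363P carcinosarcomas of at least 75% labelled epithelium, where B4galnt2 was at 6.92 (adjusted p = 0.069). The cause of these differences was not tested. Leaving out 1 tumour at a time gave 0 to 2 genes with all 8 tumours, among them 1 without 130.10A and 2 without 5, and 0 to 54 without 90.01A as well, among them 2 without 131.03A. For the difference of contrasts it gave 0 to 116, among them 1 without 89.01A or 90.01A, 4 without KP 26.02A or L1363P 26.2, 5 without L1363P 54.1, 11 without L1363P 52 and 36 without L1363P 7.2. With all 8 tumours, Yap1 was at -0.12 on the log2 scale, and turned to 0.78 with limma and 0.28 with the BUR term. It was 0.37 without 26.02A, 0.32 without 130.10A and 2.85 without 90.01A. Birc2 (1.21) turned to -3.04 among KDV-coded tumours, and ranged from -2.35 without 5 to 4.29 without 90.01A, with 0.93 without 40. Without 90.01A, Epcam turned to -0.055, Vim to 0.025 and Mmp3 to 0.30. In the fit without 90.01A, Trp53 (-0.13) turned to 0.17 and Zeb1 (-0.79) to 0.53 among KDV-coded tumours. Leaving out 1 more tumour there, Trp53 ranged from -0.24 to 0.0096 (without 39), with -0.13 without 40. Vim (0.025) ranged from -0.18 without 131.03A to 0.39 without 39, and was also below 0 without 5 (-0.14), 89.01A (-0.024), 40 (-0.011) or 26.02A (-0.0087). Mmp3 (0.30) ranged from -0.13 without 5 to 1.40 without 39, with -0.039 without 89.01A, and Epcam (-0.055) was 0.058 without 131.03A and 0.043 without 130.10A. Over the 74 results of each KP fit, 474 of 516 other values with all 8 tumours and 472 of 516 without 90.01A kept direction and side of the threshold. These are the settings that leave out no further tumour. As no gene passed in the main fits, keeping the side means not passing. Of the remaining values, 39 and 42 came to pass the threshold in the same direction, and 3 and 2 changed direction. No paired analysis was possible because the tumour numbers are not shared between the groups.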
